A study of Rattus norvegicus with 24 samples.

Results

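Rat kidney cortex 24 h after a bilateral ischemia of 20 min was compared with cortex of sham rats, over all genes the array measured. The comparison rests on 6 of the 24 arrays of the series, chosen by their titles: 3 of cortex at 24 h of reperfusion and 3 of sham cortex. All rats were Wistar and 3 months old, no genetic change is given for any group, and the labels name no drug. The other arrays were cortex at 6 h and 120 h and medulla at sham, 6 h, 24 h and 120 h, with 3 arrays in each group, and they serve here to set the 24 h cortex beside its neighbours in time and region. The labels do not say whether the 3 arrays of a group were 3 animals, so a p-value here speaks of the spread among these arrays, part or all of which may be technical. Nor do they say whether tissue was pooled, and a piece of cortex holds all its cell types together.

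The renal cortex is mostly proximal tubule, an epithelium that reabsorbs most of the filtered load and burns fatty acids and other fuels in its mitochondria to do so. Ischemia followed by reperfusion damages this epithelium, and cells that survive spread, lose features of the mature tubule and divide to refill the gaps. Leukocytes and the coagulation and acute phase proteins also take part in the response of injured kidney.

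Array signal was similar in both groups. The median intensity was between 80.8 and 85.7 on the 24 h arrays and between 75.8 and 79.9 on the sham arrays. Between 11589 and 11981 probes were detected at 24 h and between 11977 and 12287 in sham cortex. Each of the 6 arrays correlated better with the other arrays of its own group than with any array of the opposite group (r of 0.979 to 0.988 within 24 h cortex, 0.972 to 0.989 within sham cortex and 0.916 to 0.953 between them). Elsewhere in the series the first and second 6 h cortex arrays correlated best with 24 h cortex, the third 6 h cortex array with 120 h cortex, the first and the third 6 h medulla arrays with 24 h medulla, and the first sham medulla array with sham cortex. Values below are log2 of the background-corrected, quantile-normalized intensity, and a change is the 24 h mean minus the sham mean with its standard error (SE, n = 3 arrays in each group). Adjusted p-values are from limma with Benjamini-Hochberg adjustment over 14390 probes, and a gene is said to have risen or fallen where that p was under 0.05.

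At 24 h the cortex had changed in a large share of what the array detected, in both directions. Of 14390 probes, 3766 passed the test (26.2%), of which 1811 were higher (12.6%) and 1955 lower (13.6%). Counting 1 probe per gene, 1368 of 9799 genes were higher (14.0%) and 1307 lower (13.3%), and the median change over all 9799 genes was 0.03. At least 2-fold changes were seen in 875 higher and 1034 lower probes, at least 4-fold changes in 167 and 181, and at least 8-fold changes in 52 and 25. The 3 arrays of each group did not overlap for 6414 probes (44.6%). With each array scaled by its median instead of quantile-normalized, the split was 2134 higher and 1606 lower probes, so the balance of directions depends on the normalization. Leaving out the first sham array lowered the count most, to 2545 probes.

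**Figure D1:**
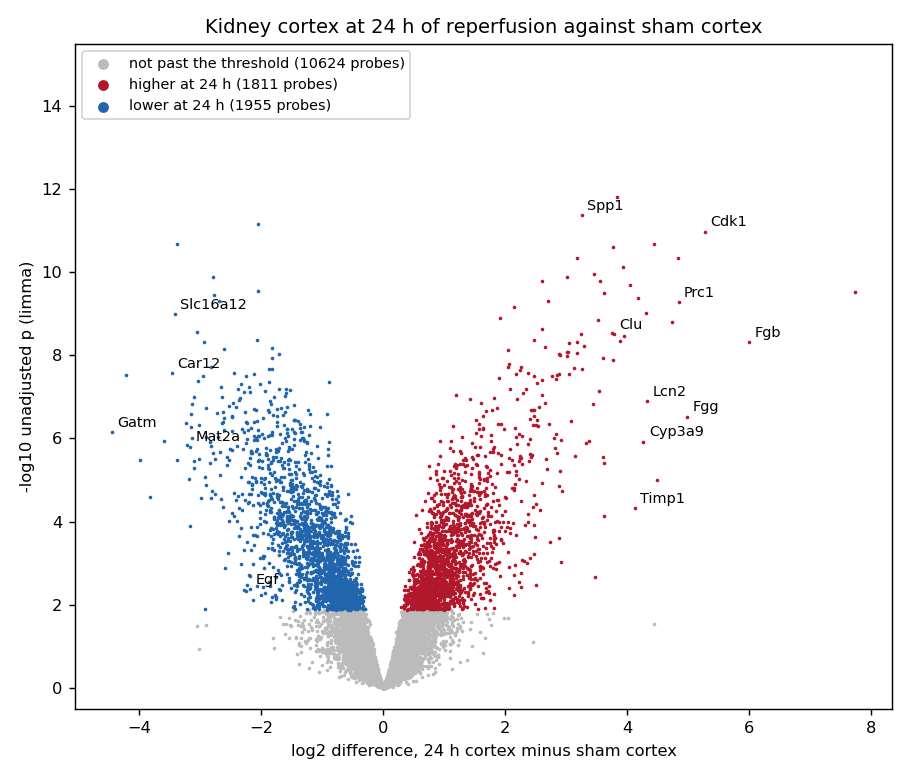
Change of each of 14390 probes in 24 h cortex against sham cortex (x axis, log2) and its unadjusted limma p-value (y axis, minus log10), with probes past the threshold of 0.05 in colour and some genes named. Fgb and Cdk1 lie at the upper right with changes of 6.01 and 5.28, and Gatm at the left with a change of -4.45.

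Among annotated genes the highest changes belonged to fibrinogen and to cell division. Fgb, which encodes the beta chain of fibrinogen, measured 9.86, 10.57 and 12.16 in 24 h cortex and 4.74, 4.77 and 5.06 in sham cortex, where it was above background on 1 of 3 arrays. It rose by 6.01 ± 0.60, or 64.2-fold (adjusted p = 1.65e-06). Fgg, the gamma chain, measured 8.46, 10.06 and 10.75 at 24 h and 4.90, 4.70 and 4.72 in sham, above background there on 1 of 3 arrays, a rise of 4.98 ± 0.65 (adjusted p = 2.79e-05). For both chains every 24 h array lay far above every sham array, the third 24 h array was the highest, and the 24 h arrays spread much more widely than the sham arrays. The promoter of Fgb is shown because fibrinogen genes of the liver are known to respond to interleukin-6 through STAT3. Capitals mark matches on either strand to TTCNNNGAA, a spelling that STAT factors bind, and to TGANTCA, the AP-1 element bound by Fos and Jun proteins, in the 250 bases before and 50 after the gene's start (RefSeq, GRCr8 chr2:170700826-170701125, minus strand).
Fgb: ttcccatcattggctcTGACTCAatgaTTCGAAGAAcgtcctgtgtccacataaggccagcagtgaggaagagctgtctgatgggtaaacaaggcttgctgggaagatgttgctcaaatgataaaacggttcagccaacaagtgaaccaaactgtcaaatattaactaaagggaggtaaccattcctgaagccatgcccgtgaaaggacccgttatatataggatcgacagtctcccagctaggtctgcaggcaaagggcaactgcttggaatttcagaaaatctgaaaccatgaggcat
The STAT match starts at position -223 from the gene's start and contains TTCGAA, and the AP-1 match starts at position -234. A STAT match was present in 7.06% and an AP-1 match in 5.43% of the 8100 promoters of tested genes found in the same table, and in 6.98% and 7.07% of those of genes that were higher at 24 h, so such matches are shown as sequence only.

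The other acute phase genes followed in smaller steps. Of 12 acute phase genes tested, 4 were higher and 0 lower, with a median change of 0.53 against 0.03 for all genes. Hpx encodes hemopexin, which binds free heme, and measured 7.19, 7.71 and 8.63 at 24 h against 4.83, 4.96 and 4.69 in sham, where 1 of 3 arrays was above background, a rise of 3.01 ± 0.24 (8.08-fold, adjusted p = 1.48e-07). Serpina3n, a serine protease inhibitor, rose by 3.45 ± 0.43, and Lbp, which carries bacterial lipopolysaccharide to its receptor, by 2.35 ± 0.40. All 3 were again highest on the third 24 h array. Mt1, a metallothionein that binds zinc and copper, rose by 1.70 ± 0.39 to values near the top of the scale, and its call was lost when only the groups compared entered the fit. Apart from Mt1, these proteins are made chiefly by liver, and of 12 liver markers tested only Fgb and Fgg passed the test. The summed level of the 12 liver markers was 5606 to 9348 at 24 h and 3752 to 4729 in sham, but without Fgb and Fgg it was 3058 to 6284 and 3692 to 4675, which overlap.

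Injury markers of the tubule made up the next group. Of 24 tested, 11 were higher and 2 lower, with a median change of 1.08. This list was drawn up from genes known to respond to kidney injury, so its direction is no independent finding. Lcn2, a siderophore-binding protein released by injured tubules, measured 11.48, 11.37 and 12.44 at 24 h and 6.94, 7.18 and 8.17 in sham (change 4.33 ± 0.54, 20.1-fold, adjusted p = 1.60e-05). Timp1, an inhibitor of matrix metalloproteinases, measured 11.11, 10.66 and 12.43 at 24 h and 6.78, 7.37 and 7.67 in sham (change 4.12 ± 0.79, adjusted p = 0.000866). Both genes separated the groups without overlap, with the third 24 h array highest. Clusterin (Clu, an extracellular chaperone) rose by 3.79 ± 0.37 and osteopontin (Spp1, a secreted adhesion protein) by 3.26 ± 0.22. Clu and Spp1 reached means of 14.48 and 14.61 at 24 h, close to the top of the normalized scale at 14.78, where differences are compressed. Tnfrsf12a, the receptor of the cytokine TWEAK, rose by 3.61 ± 0.55, while Tnfsf12, which encodes TWEAK itself, fell by 1.39 ± 0.34. Abcb1b, a drug efflux pump, Cryab, a small heat shock protein, and Cd44, a hyaluronan receptor, rose by 2.82, 2.15 and 1.79. Igfbp3, which binds insulin-like growth factors, was among the 2 that were lower, with a change of -2.40 ± 0.49.

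**Figure D2:**
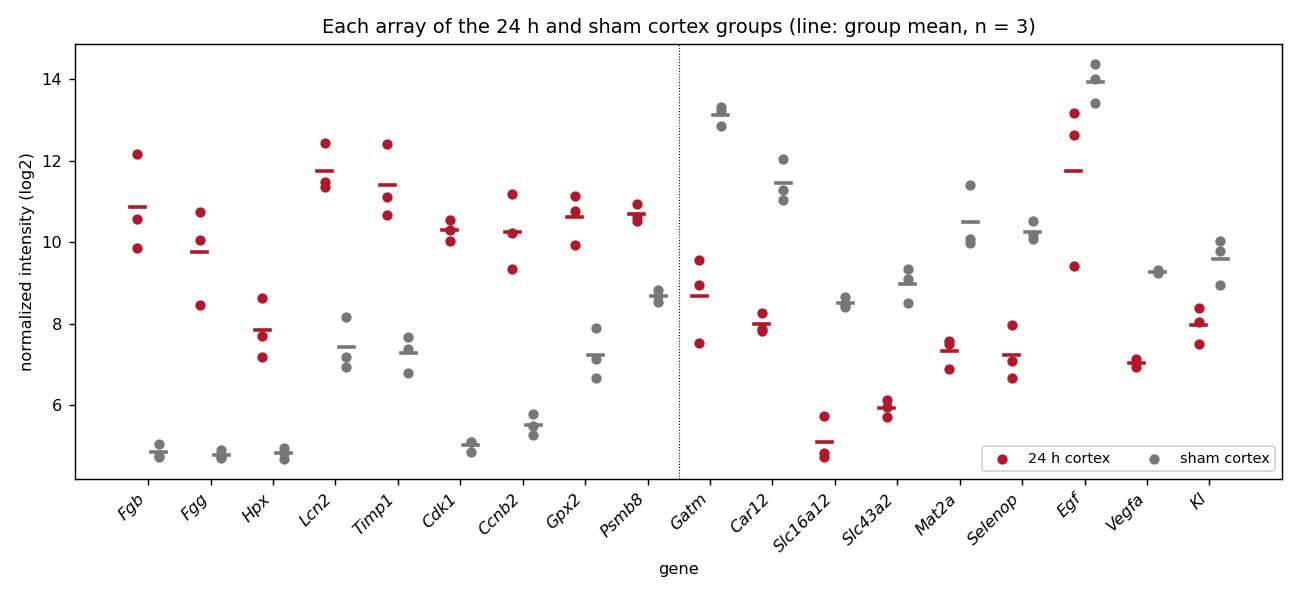
Normalized log2 intensity (y axis) of 18 genes (x axis) on each array, with the 3 arrays of 24 h cortex left of the 3 arrays of sham cortex for each gene and the group mean drawn as a line. In each gene shown the 3 points of 24 h cortex lie beyond the 3 points of sham cortex, with the widest 24 h spreads in Fgb, Fgg and Egf.

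Cell division was the function with the largest share of changed genes. Of 48 mitosis and spindle genes tested 43 were higher and 0 lower, with a median change of 2.28, against 14.0% higher and a median of 0.03 over all genes. Cdk1, whose activity with its cyclins takes cells from G2 into mitosis, measured 10.55, 10.31 and 10.04 at 24 h and 5.10, 5.11 and 4.85 in sham (change 5.28 ± 0.37, 38.8-fold, adjusted p = 3.91e-08). Ccnb2, a cyclin partner of Cdk1, measured 11.19, 10.22 and 9.35 at 24 h and 5.49, 5.27 and 5.79 in sham (change 4.74 ± 0.45, adjusted p = 7.85e-07). Prc1, which bundles microtubules of the central spindle, measured 10.72, 10.26 and 9.90 at 24 h and 5.63, 5.49 and 5.23 in sham (change 4.84 ± 0.43). In these genes the order of the 24 h arrays was opposite to that in the fibrinogen genes, with the first array highest and the third lowest, and no array of one group reached the other.

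Other genes of the same list act at several steps of mitosis. Kif22, a chromosome-binding kinesin, rose by 4.32 ± 0.39 and Kif20a, a kinesin of the cleavage furrow, by 3.89 ± 0.39. Knstrn, a kinetochore and spindle protein, rose by 4.18 ± 0.36 and Aurkb, the kinase that corrects faulty spindle attachments, by 4.05 ± 0.34. Pbk, a kinase active in mitosis, measured 8.65, 8.76 and 8.40 at 24 h and 4.63, 4.91 and 4.75 in sham, where 1 of 3 arrays was above background, a rise of 3.84 ± 0.24. Ccna2, a cyclin of S phase and G2, measured 8.60, 8.58 and 8.57 at 24 h and was not above background on any sham array, which makes it at least 13.1-fold higher (adjusted p = 1.11e-07). Here the bound is set against the lowest signal above background on each sham array. Foxm1, a transcription factor of mitotic genes, rose by 1.57 ± 0.26.

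The promoters of mitotic genes in mammals often hold a CCAAT box, bound by NF-Y, upstream of a cell cycle homology region (CHR), where the MuvB complexes act. The promoters of Cdk1, Ccnb2, Prc1 and Kif22, the mitotic genes with the highest changes, are shown from 250 bases before to 50 after the gene's start, read on the gene's strand (RefSeq, GRCr8 chr20:19265043-19265342 plus, chr8:79981609-79981908 minus, chr1:143659231-143659530 plus and chr1:191080829-191081128 minus). Capitals mark CCAAT or its complement ATTGG, and the CHR as TTTGAA or TTCGAA or their complements.
Cdk1: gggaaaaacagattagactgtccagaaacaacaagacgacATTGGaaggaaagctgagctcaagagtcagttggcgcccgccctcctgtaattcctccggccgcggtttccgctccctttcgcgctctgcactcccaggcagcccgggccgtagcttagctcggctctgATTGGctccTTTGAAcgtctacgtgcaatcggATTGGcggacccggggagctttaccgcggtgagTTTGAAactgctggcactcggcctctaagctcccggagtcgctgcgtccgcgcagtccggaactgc
Ccnb2: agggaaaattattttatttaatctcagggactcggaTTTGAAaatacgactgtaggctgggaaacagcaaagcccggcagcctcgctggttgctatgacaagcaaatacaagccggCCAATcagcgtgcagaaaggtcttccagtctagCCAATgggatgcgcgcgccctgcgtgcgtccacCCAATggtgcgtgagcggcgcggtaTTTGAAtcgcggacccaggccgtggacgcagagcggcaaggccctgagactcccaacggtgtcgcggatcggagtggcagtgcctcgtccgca
Prc1: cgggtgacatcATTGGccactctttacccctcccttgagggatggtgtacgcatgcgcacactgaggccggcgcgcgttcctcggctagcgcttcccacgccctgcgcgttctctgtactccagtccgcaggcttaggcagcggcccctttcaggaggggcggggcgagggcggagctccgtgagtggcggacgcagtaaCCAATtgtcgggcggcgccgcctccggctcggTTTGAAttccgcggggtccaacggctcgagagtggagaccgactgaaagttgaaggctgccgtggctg
Kif22: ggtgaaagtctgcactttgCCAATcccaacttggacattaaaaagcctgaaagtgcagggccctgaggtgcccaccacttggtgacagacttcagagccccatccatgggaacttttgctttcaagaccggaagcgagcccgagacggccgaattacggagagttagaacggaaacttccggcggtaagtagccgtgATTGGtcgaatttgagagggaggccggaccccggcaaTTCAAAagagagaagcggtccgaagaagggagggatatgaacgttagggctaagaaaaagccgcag
Each of these windows holds a CHR match within 43 bases before the gene's start and a CCAAT match within 68 bases before it. Of the 43 mitosis and spindle genes that were higher, 35 had a promoter in the table, and 28 of these held a CHR match (80.0%), compared with 13.9% of the 8100 promoters of all tested genes and 19.7% of all 33469 promoters in the table. A CCAAT match was found in 24 of the 35 (68.6%, against 37.5% of tested genes), and both motifs in 20 (57.1%, against 5.57%). The DNA replication genes that were higher had CCAAT matches in 18 of 27 promoters (66.7%) but CHR matches in 5 (18.5%). A match says only that the letters are there. The 7 mitotic promoters with no CHR match in the window were those of Aurka, Bub1, Cenpk, Dlgap5, Kif20a, Kif2c and Stmn1, whose naming follows from the search and not from their expression.

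**Figure D3:**
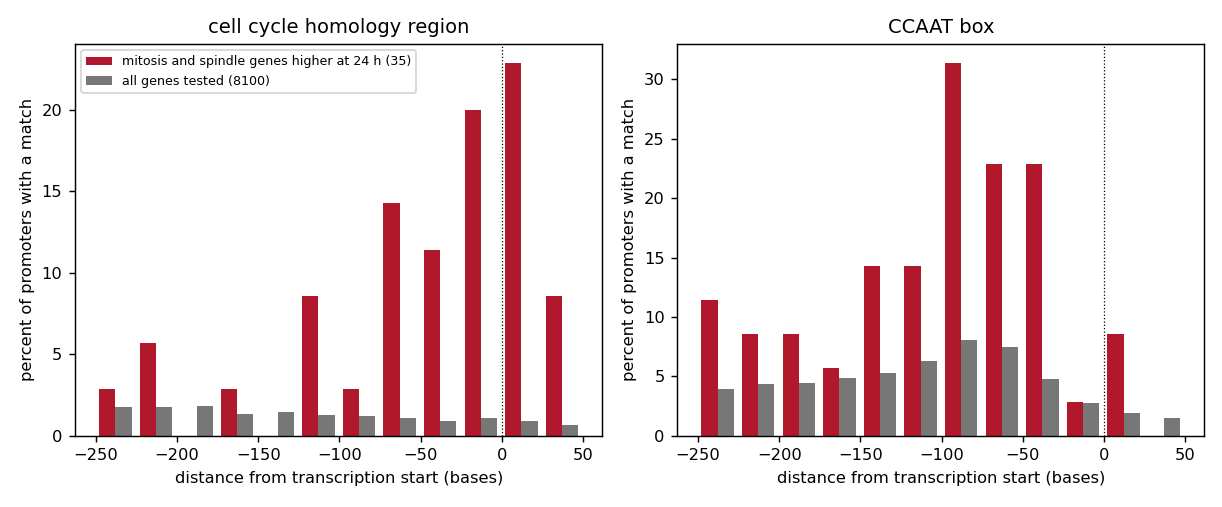
Percent of promoters with a CHR match or a CCAAT match starting in each 25-base bin, by distance from the gene's start, for 35 mitosis and spindle genes that were higher at 24 h and for 8100 tested genes. CHR matches of the mitotic genes gather around the start, with 20.0% of promoters in the last bin before it and 22.9% in the first bin after it, against at most 1.84% in any bin among the tested genes.

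DNA replication moved in the same direction. Of 46 genes tested 33 were higher and 0 lower, with a median change of 1.30. Here 44 were detected on all 3 arrays at 24 h, 32 on all 3 in sham and 37 on any sham array, so the same limit of the filter applies. Rrm2, a subunit of the enzyme that makes deoxynucleotides, measured 8.89, 8.67 and 9.17 at 24 h and 5.72, 5.70 and 5.54 in sham (change 3.25 ± 0.36, adjusted p = 4.62e-06). Mcm6, part of the replicative helicase, rose by 3.08 ± 0.41, Pole2, a subunit of DNA polymerase epsilon, by 2.83 ± 0.32, and Gins1, part of the helicase complex, by 2.65 ± 0.33. Gmnn encodes geminin, which blocks a second round of origin licensing, and rose by 2.72 ± 0.37. Pcna, the sliding clamp, rose by 1.07, with 12.08, 12.28 and 12.60 at 24 h and an already high 11.32, 11.29 and 11.15 in sham.

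Genes that act before S phase gave a mixed picture. Of 25 G1 and p53 genes tested 5 were higher and 4 lower, near the shares for all genes. Cdkn3, a phosphatase of cyclin-dependent kinases, rose by 3.94 ± 0.39, Cdk6 by 1.86 ± 0.31, and Phlda3, a p53 target, by 1.54 ± 0.29. Rb1, the retinoblastoma protein that restrains S phase entry, fell by 1.61 ± 0.37, and Ccng2, a cyclin of quiescent cells, by 1.95 ± 0.40. Ccnd1 (cyclin D1) measured 11.81, 12.09 and 11.62 at 24 h and 12.26, 11.84 and 11.57 in sham, with overlapping arrays (adjusted p = 0.939). Cdkn1a, which encodes the p21 inhibitor, was above background on 1 of 3 arrays at 24 h and on 0 of 3 in sham, so no change could be measured.

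Tubulins rose along with the mitotic genes. Of 11 microtubule subunits tested 9 were higher and 0 lower, with a median change of 1.31. Tubb6 measured 8.08, 7.92 and 9.06 at 24 h and 5.25, 5.42 and 5.63 in sham (change 2.92 ± 0.42), Tubb5 rose by 2.14 ± 0.38 and Tubb2b by 1.88 ± 0.28. Tubulin genes are close copies of each other and a probe could read more than 1 of them.

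The rest of the cytoskeleton changed in part. Of 12 keratins and other intermediate filament genes 6 were higher and 1 lower (median 1.00), among them Lmnb2, a lamin of the nuclear envelope (1.43 ± 0.33), Vim, the filament of mesenchymal and dedifferentiated tubule cells (1.08 ± 0.29), and Krt8, a keratin of simple epithelia (1.02 ± 0.28). Of 36 actin genes 11 were higher and 5 lower. Arpc1b, part of the complex that branches actin, rose by 1.88 ± 0.25 and Flna, an actin crosslinker, by 1.34 ± 0.35. Msn (moesin), which ties actin to the membrane, fell by 2.11 ± 0.49 and Actn4, a crosslinker, by 1.27 ± 0.24. Annexins, which bind membranes in the presence of calcium, were higher in 4 of 10, with Anxa2 at 2.46 ± 0.47 and Anxa5 at 1.80 ± 0.27. S100 proteins were higher in 4 of 9 (2 without the first sham array), with S100a11 at 1.81 ± 0.41.

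Junction proteins went both ways. Of 23 tested, 6 were higher and 3 lower, and 2 claudins moved in opposite directions. Cldn3, a sealing claudin, measured 9.97, 9.97 and 9.82 at 24 h and 7.81, 7.94 and 7.51 in sham (change 2.17 ± 0.30, adjusted p = 4.15e-05). Cldn2, which forms the cation pore of the proximal tubule, measured 8.22, 8.38 and 8.93 at 24 h and 10.53, 10.14 and 10.32 in sham (change -1.82 ± 0.43, adjusted p = 0.00407). Neither gene overlapped between the groups.

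Machinery for making and breaking down protein was higher in part. Of 41 proteasome genes 23 were higher and 0 lower, with a median change of 0.60. Without the first sham array the count was 11. The largest changes were in the 3 catalytic subunits that replace the standard ones in the immunoproteasome, Psmb10 (2.26 ± 0.42), Psmb8 (2.01 ± 0.37) and Psmb9 (2.00 ± 0.43). Psmb8 measured 10.53, 10.61 and 10.94 at 24 h and 8.55, 8.82 and 8.68 in sham. The standard catalytic subunit Psmb6 rose by 1.32 ± 0.28 and the ATPase subunit Psmc3 by 1.32 ± 0.21. Of 62 cytosolic ribosomal protein genes 19 were higher and 2 lower (median 0.40), and of 57 mitochondrial ones 14 were higher and 0 lower (median 0.38), which became 3 without the first sham array, 6 without the second 24 h array and 7 without the third. In the nucleolus, where ribosomes are assembled, 12 of 37 genes were higher and 3 lower, and the 15 called became 8 without the third 24 h array and 9 without the first sham array. Nhp2 and Fbl, which modify ribosomal RNA, rose by 1.71 ± 0.35 and 1.14 ± 0.29, while Pes1 and Ddx21, a processing factor and a helicase of the same compartment, fell by 1.71 ± 0.37 and 1.73 ± 0.26. Translation factors and tRNA ligases were higher in 11 of 35 and lower in 3. Eif4ebp1, which holds back cap-dependent translation, rose by 2.61 ± 0.45, and the ligases Vars1 and Cars1 by 1.80 ± 0.39 and 1.40 ± 0.34. Ribosomal protein genes have many near-identical copies, which probes may not separate.

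The lower side of the comparison was led by creatine synthesis. Gatm, the first enzyme of creatine synthesis and a mitochondrial enzyme of the proximal tubule, measured 8.97, 7.53 and 9.57 at 24 h and 13.22, 12.85 and 13.32 in sham (change -4.45 ± 0.62, 21.8-fold lower, adjusted p = 4.92e-05). Slc16a12, a creatine carrier of the tubule, measured 4.82, 4.74 and 5.73 at 24 h and 8.67, 8.41 and 8.47 in sham (change -3.42 ± 0.31), and was above background on 1 of the 3 arrays at 24 h. Mat2a, which makes the methyl donor S-adenosylmethionine, measured 7.50, 7.58 and 6.90 at 24 h and 11.41, 9.98 and 10.10 in sham (change -3.17 ± 0.47). All 3 separated the groups by more than the spread within either. Gamt, the second enzyme of creatine synthesis, measured 10.76, 11.19 and 9.28 at 24 h and 10.28, 11.51 and 11.47 in sham, with overlap (adjusted p = 0.483). Of the 15 genes tested of the creatine and methionine group 5 were lower and 1 higher, with a median change of -0.59, and the 6 called became 3 without the first sham array.

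Genes of mitochondrial fuel use were lower in part, and most did not pass. Of 29 citric acid cycle genes 10 were lower and 1 higher (median -0.44), of 31 mitochondrial carriers 10 were lower and 2 higher (median -0.31), and of 54 genes of fatty acid oxidation and peroxisomes 14 were lower and 5 higher (median -0.33). Without the first sham array the citric acid cycle had 6 called genes in place of 11, and without the second 24 h array fatty acid oxidation and peroxisomes had 12 in place of 19. Idh2, the NADP-dependent isocitrate dehydrogenase, measured 11.39, 10.92 and 10.74 at 24 h and 13.02, 12.79 and 12.73 in sham (change -1.83 ± 0.30, adjusted p = 0.000243), and Cs, citrate synthase, fell by 1.23 ± 0.26. Dhtkd1, a dehydrogenase of lysine breakdown related to the oxoglutarate enzyme, fell by 3.39 ± 0.53. Slc25a23, a calcium-dependent carrier of ATP, fell by 2.84 ± 0.45 and Slc25a51, which carries NAD into mitochondria, by 1.99 ± 0.36. Among peroxisomal genes, Pex5, the import receptor, fell by 1.89 ± 0.30, Cat (catalase) by 1.71 ± 0.41 and Acox3, an acyl-CoA oxidase, by 1.70 ± 0.37, whereas Acox2, an oxidase of branched chains, rose by 1.54 ± 0.36. Cpt1a, which admits fatty acids to mitochondria, measured 11.29, 11.29 and 10.77 at 24 h and 12.22, 11.41 and 11.49 in sham (adjusted p = 0.120).

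The subunits of the respiratory chain gave another result. In complex I 1 of 25 genes was higher and 2 were lower, in complexes II to IV 1 of 20 was higher and 1 lower, and in ATP synthase 3 of 13 were higher and 0 lower, so most subunits did not pass the test. The 3 calls in ATP synthase became 0 without the first or the second 24 h array or the first sham array and 1 without the third 24 h array, and the 2 calls in complexes II to IV became 1 without the first or the third 24 h array or the first sham array. Several of them lie near the top of the scale in both groups. Regulators of energy metabolism were lower in 8 of 29 and higher in 0 (median -0.44), with 4 called without the third 24 h array and 5 without the first sham array. They included Esrrg and Rxra, nuclear receptors of mitochondrial and lipid genes, which fell by 1.84 ± 0.39 and 1.76 ± 0.27, and Epas1, the hypoxia-inducible factor 2 alpha, which fell by 1.84 ± 0.36. Ppara and Ppargc1a, the best known activators of fatty acid oxidation in tubules, did not pass (changes 0.16 and -0.78, adjusted p = 0.663 and 0.182).

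Glycolysis differed from this. Of 28 genes 7 were higher and 3 lower (median 0.08). Eno2, an enolase, rose by 1.50 ± 0.32 and Hk3, a hexokinase, by 1.28 ± 0.23, while Ldhb, the lactate dehydrogenase subunit of oxidative tissue, fell by 0.91 ± 0.22. Slc16a3, the carrier that exports lactate, rose by 1.38, and Slc16a1, which carries lactate and pyruvate, fell by 2.09 ± 0.36. Of 14 gluconeogenesis and fructose genes 2 were lower and 0 higher, and 1 was without the third 24 h array, the first sham array or the third. The gluconeogenic enzymes G6pc1 (12.99, 12.33 and 12.43 at 24 h, 14.07, 13.65 and 13.84 in sham) and Fbp1 had changes of -1.27 and -0.99 with no overlap of the arrays, and did not pass (adjusted p = 0.192 and 0.244).

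Amino acid breakdown was lower in 10 of 40 genes and higher in 0, with a median of -0.50, and the count was 6 without the third 24 h array and 5 without the first sham array. Sardh, which oxidizes sarcosine, fell by 1.87 ± 0.30, Aldh6a1, of valine breakdown, by 1.76 ± 0.30, and Maob, a monoamine oxidase, by 1.96 ± 0.49. Acmsd, which diverts tryptophan away from NAD synthesis, measured 7.16, 6.47 and 7.08 at 24 h and 10.08, 9.67 and 9.94 in sham (change -2.99 ± 0.55, adjusted p = 0.000577). In contrast, cholesterol synthesis and uptake was higher in 6 of 21 and lower in 1, with Sqle, an enzyme late in the pathway, at 1.53 ± 0.30 and Pmvk, of the mevalonate pathway, at 1.78 ± 0.23.

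Markers of the proximal tubule differed beside these metabolic genes mainly in their summed level. Of 31 tested 4 were lower (12.9%, against 13.3% of all genes) and 0 higher, so the share that was lower is near that of all genes. Their median change was -0.58, and their summed level was 178724 to 219198 at 24 h and 276393 to 304056 in sham, without overlap. All 31 were detected on all 6 arrays. Some of them, such as Gatm, Acmsd and Fbp1, are also among the metabolic genes above, and the part of these cells in the metabolic results was not tested. In a piece of tissue fewer cells of a type and less RNA per cell cannot be told apart. Markers at the endocytic surface such as Cubn (12.03, 11.55 and 12.22 at 24 h, 12.64, 12.32 and 12.38 in sham) did not pass, while Gatm, Acmsd and the glucose carrier Slc5a1 did.

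**Figure D4:**
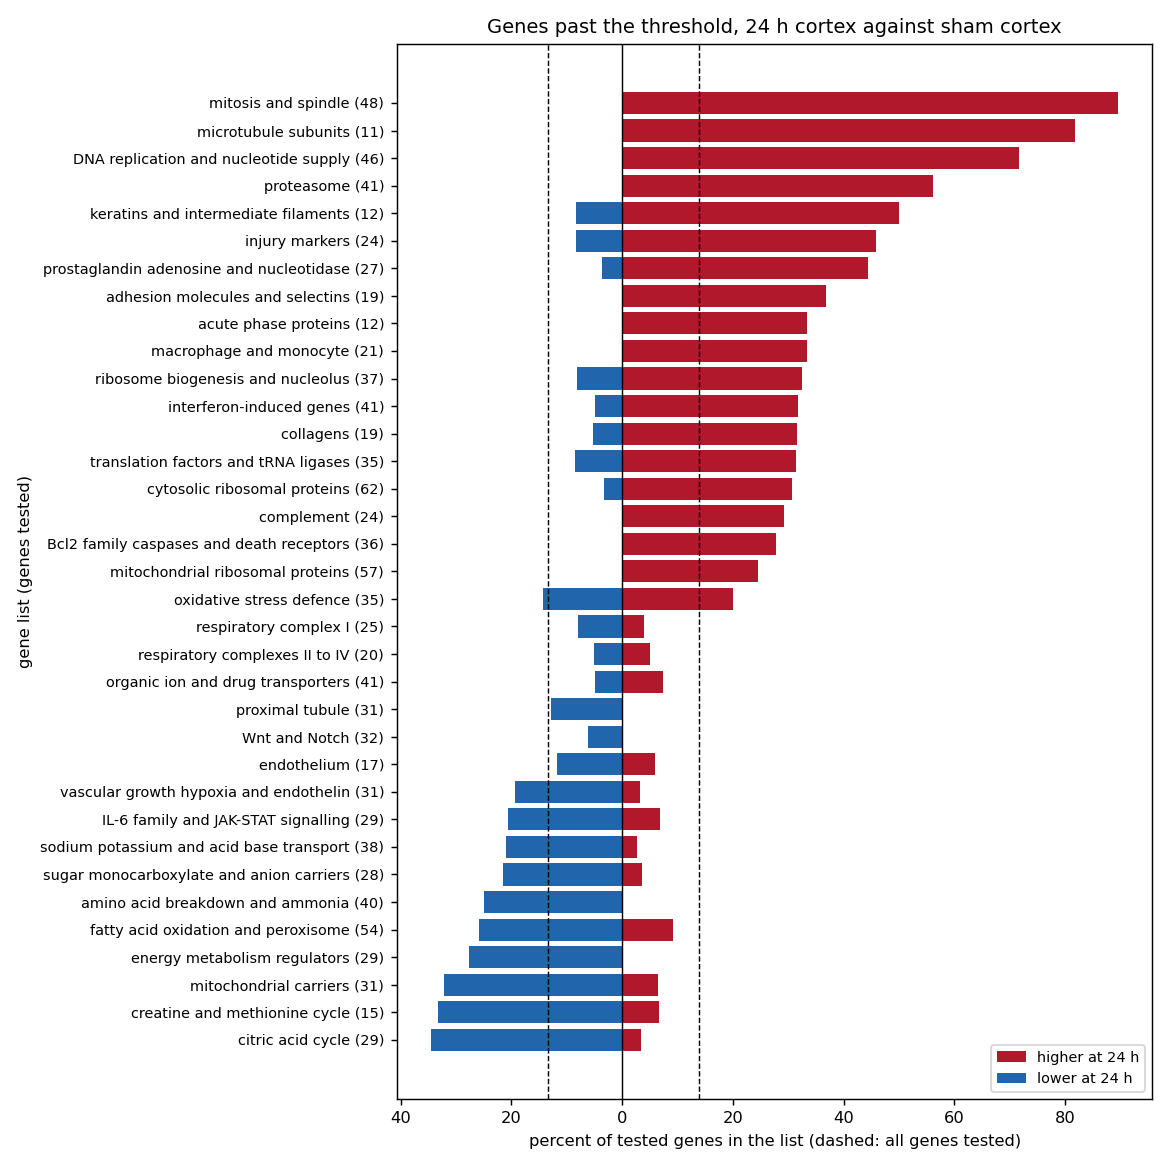
Percent of tested genes that were higher (right) or lower (left) in 24 h cortex than in sham cortex for 35 of 83 gene lists, with the shares over all 9799 genes as dashed lines at 14.0% and 13.3%. Mitosis and spindle genes reach 89.6% higher and microtubule subunits 81.8%, while citric acid cycle genes reach 34.5% lower.

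Transport genes of the tubule were lower for some solutes. Of 28 sugar, monocarboxylate and anion carriers 6 were lower and 1 higher (median -0.46), and of 38 sodium, potassium and acid-base genes 8 were lower and 1 higher (median -0.26). Car12, a membrane carbonic anhydrase, measured 8.27, 7.87 and 7.82 at 24 h and 12.04, 11.03 and 11.29 in sham (change -3.47 ± 0.39, 11.1-fold lower, adjusted p = 5.56e-06). Kcnj15, a potassium channel, measured 4.96, 4.67 and 4.88 at 24 h, above background on 1 array, and 7.74, 6.99 and 7.67 in sham (change -2.63 ± 0.34). Wnk1, a kinase that controls chloride transporters, fell by 2.09 ± 0.35, while Fxyd5, a regulator of the sodium pump, rose by 1.57 ± 0.34. The chloride and bicarbonate exchanger Slc4a1 and the factor Foxi1, both of acid-secreting intercalated cells, fell by 2.01 ± 0.34 and 1.77 ± 0.36. Both are among 22 collecting duct markers, of which 3 were lower (13.6%, near the 13.3% of all genes) and 0 higher, with a median of -0.11. Slc4a1 is also the band 3 protein of erythrocytes, whose 9 tested markers held no other gene that passed, though 2 passed without the first 24 h array.

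Amino acid carriers held called genes in both directions. Of 28 tested 6 were higher (21.4%) and 4 lower (14.3%), against 14.0% and 13.3% of all genes. Slc43a2, a carrier of large neutral amino acids, measured 5.97, 5.72 and 6.13 at 24 h and 9.10, 9.35 and 8.50 in sham (change -3.04 ± 0.35, adjusted p = 7.16e-06), and Slc7a8, a basolateral exchanger of the proximal tubule, fell by 1.78 ± 0.31. Slc1a5, a glutamine carrier, and Slc7a5, a leucine carrier, both typical of dividing cells, rose by 1.53 ± 0.30 and 1.40 ± 0.25. Among drug carriers the orphan Slc22a23 fell by 2.53 ± 0.32.

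The phosphate and vitamin D axis had 3 higher and 3 lower of 23 genes, shares near the 14.0% and 13.3% of all genes. Kl encodes klotho, the co-receptor for fibroblast growth factor 23, and measured 8.04, 7.51 and 8.39 at 24 h and 10.04, 9.79 and 8.95 in sham (change -1.61 ± 0.41, adjusted p = 0.00618). Fgfr4, a receptor that can pair with klotho, fell by 2.24 ± 0.30, and Cyp2r1, the vitamin D 25-hydroxylase, by 1.13 ± 0.27. Slc34a2, a phosphate carrier known from lung and gut, rose by 2.92 ± 0.75, with 9.93, 10.20 and 10.70 at 24 h and a wide 8.65, 7.17 and 6.24 in sham. The main phosphate carrier of the proximal tubule, Slc34a1, measured 13.01, 12.36 and 11.60 at 24 h and 13.79, 13.61 and 13.43 in sham, which did not pass (adjusted p = 0.179).

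Lysosomal and endocytic genes mostly did not pass, with 2 of 48 higher and 5 lower. Ctsd, the protease cathepsin D, rose by 2.37 ± 0.47. Atp6v1a, the catalytic subunit of the proton pump, fell by 2.09 ± 0.30, Glb1, the lysosomal galactosidase, by 1.73 ± 0.27, and Rab5a, of early endosomes, by 1.55 ± 0.31.

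Detoxification and oxidative stress genes went both ways. Of 35 oxidative stress genes 7 were higher (20.0%) and 5 lower (14.3%), against 14.0% and 13.3% of all genes. Gpx2, a glutathione peroxidase of epithelia, measured 9.94, 10.77 and 11.13 at 24 h and 6.68, 7.90 and 7.14 in sham (change 3.38 ± 0.49, adjusted p = 6.54e-05). Akr1b8, an aldo-keto reductase, rose by 3.33 ± 0.48, Nqo1, a quinone reductase, by 1.93 ± 0.29, and Hmox1, heme oxygenase 1, by 2.41 ± 0.60. Hmox1 was uneven, with 9.12, 7.36 and 10.12 at 24 h and 6.20, 6.51 and 6.67 in sham. Selenop, the plasma carrier of selenium, measured 7.97, 7.08 and 6.68 at 24 h and 10.52, 10.08 and 10.19 in sham (change -3.02 ± 0.47, adjusted p = 0.000130), and Gsr, glutathione reductase, fell by 1.44 ± 0.29. Cyp3a9, a steroid-metabolizing P450, measured 8.12, 9.32 and 10.10 at 24 h and 4.75, 4.91 and 5.07 in sham (change 4.27 ± 0.62, adjusted p = 6.78e-05). Over the P450 family 4 of 42 genes were higher (9.52%) and 5 lower (11.9%), both below the shares of all genes. Cyp4a1, a fatty acid hydroxylase, fell on both its probes, by 1.47 (adjusted p = 0.00137) and by 3.99 (adjusted p = 0.000137). For iron, the uptake receptor Tfrc and the reductase Steap2 fell by 1.85 ± 0.28 and 2.32 ± 0.45.

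The lowest changes also held genes of signalling and of zinc handling. Lzts3, a scaffold protein, was not above background on any 24 h array and measured 8.72, 7.68 and 7.85 in sham, which makes it at least 9.02-fold lower at 24 h. Gna12, a G protein alpha subunit, fell by 3.13 ± 0.45, Klhl25, a ubiquitin ligase adaptor, by 3.23 ± 0.43 on 1 probe and 3.10 on another, and Slc30a1, the zinc exporter of the plasma membrane, by 2.91 ± 0.41.

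Growth factors of the tubule changed in both directions. Of 14 genes of the EGF receptor family and its ligands 3 were higher and 3 lower, and the 6 called became 3 without the first sham array. Egf, made by the distal tubule, measured 12.64, 13.18 and 9.43 at 24 h and 14.38, 14.00 and 13.42 in sham (change -2.18 ± 0.67, adjusted p = 0.0216). Its call rested on the third 24 h array, which was far below the other two: without that array the change was -1.02 and did not pass, and it also did not pass without the first sham array (-1.96) or the second (-2.15). Of the 11 markers of the thick ascending limb, whose cells also make Egf, 2 were lower and 2 higher. The lower ones were Egf and Kcnj1 (-1.16), and the higher ones were Cldn19 (1.56) and Cldn16 (0.91). The 4 calls became 0 without the first sham array. The summed level of the 11 was 22747, 39263 and 9521 on the 3 arrays at 24 h and 55208, 37527 and 27915 in sham, which overlap. Egf is itself 1 of the 11, so this sum partly repeats its values, and the part of these cells in the Egf result was not tested. Of the other ligands of the same receptor, Tgfa rose by 1.73 ± 0.44 and Btc fell by 1.07 ± 0.26. Areg, a further ligand, rose by 1.21 ± 0.37, with 6.16, 7.84 and 6.36 at 24 h and 5.34, 6.18 and 5.18 in sham, which overlap, and its call was lost in 6 of 21 alternatives. The receptor Erbb4 was at least 1.06-fold higher, since it was not above background on any sham array (adjusted p = 0.0272), and its call was lost in 9 of 20 alternatives. Adam10, which sheds several of these ligands, fell by 1.87 ± 0.31.

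Vegfa, the main endothelial growth factor made by podocytes and tubules, measured 7.05, 6.94 and 7.15 at 24 h and 9.27, 9.32 and 9.26 in sham (change -2.24 ± 0.32, 4.72-fold lower, adjusted p = 6.08e-05). The arrays within each group lay close together. Angpt1, which stabilizes vessels, fell by 1.86 ± 0.26. Of 31 vascular and hypoxia genes 6 were lower and 1 higher, whereas of 17 endothelial markers 2 were lower and 1 higher (0 called without the second 24 h array or the first sham array), with a summed level of 9652 to 11892 at 24 h and 9455 to 10920 in sham, which overlap.

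Other receptors and their signals changed in both directions. In the JAK-STAT list 6 of 29 genes were lower and 2 higher, and the 8 called became 5 without the second 24 h array or the third sham array and 4 without the first sham array. Ghr, the growth hormone receptor, measured 7.91, 7.82 and 8.10 at 24 h and 11.20, 10.11 and 9.65 in sham (change -2.37 ± 0.52), and Cish, a feedback inhibitor that growth hormone induces, fell by 1.36 ± 0.30. Stat3 rose by 0.94 ± 0.21 (adjusted p = 0.00242), while Osmr, a receptor subunit upstream of it, overlapped between the groups (adjusted p = 0.726). Of 15 renin, angiotensin and kinin genes 3 were higher and 2 lower, and the 5 called became 3 without the second 24 h array. Enpep, the peptidase that breaks down angiotensin II, fell by 2.83 ± 0.52, and Kng2, a kininogen, rose by 1.94 ± 0.44.

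Some transcription factors rose and others fell. Klf5, a factor of proliferating epithelium, measured 7.82, 8.17 and 8.17 at 24 h and 5.70, 5.95 and 5.52 in sham (change 2.33 ± 0.49), and Runx1, a factor of blood cell formation, rose by 1.93 ± 0.30. Klf2, a factor of endothelium, and Cebpa, a factor of differentiated liver and fat cells, fell by 1.84 ± 0.41 and 1.93 ± 0.35. Fos measured 6.66, 5.85 and 6.62 at 24 h and 5.68, 5.55 and 7.10 in sham and overlapped (adjusted p = 0.824). Atf3, Klf6, Ier2 and Junb rose by 2.07, 1.64, 1.46 and 1.22. The call of Atf3 was lost in 8 of 21 alternatives and those of Klf6 and Junb each in 4. Of 27 immediate early factors 6 were higher (22.2%) and 2 lower (7.41%), against 14.0% and 13.3% of all genes. The 8 called became 4 without the third 24 h array or the first sham array. Hnf4a, the master factor of the proximal tubule, measured 7.66, 7.48 and 7.38 at 24 h and 8.31, 8.30 and 8.64 in sham without overlap, and did not pass (change -0.91, adjusted p = 0.145). Over 28 lineage and repair factors 3 were higher and 3 lower (10.7% each, below the 14.0% and 13.3% of all genes). The 6 called became 3 without the second or the third 24 h array or the second sham array.

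Immune genes were higher in part. Of 21 macrophage and monocyte markers 7 were higher and 0 lower, with a median of 0.77 and a summed level of 5429 to 9263 at 24 h against 2716 to 4259 in sham, without overlap. Without the first sham array the count was 4. Aif1, a cytoskeletal protein of macrophages, rose by 1.54 ± 0.39, and Cd14, the receptor for lipopolysaccharide, by 1.65 ± 0.34. Neutrophil markers were higher in 2 of 7, and lymphocyte and NK markers in 2 of 20. The first share is above and the second below the 14.0% of all genes. Their summed levels also separated the groups without overlap. They were 377 to 460 at 24 h and 240 to 300 in sham for neutrophils. For lymphocytes and NK cells they were 798 to 951 and 646 to 714. On every sham array 2 of the 7 and 7 of the 20 were detected. The count of 2 neutrophil markers became 1 without the first or the third 24 h array or the first or the second sham array. For lymphocytes it became 0 without the first or the second 24 h array and 1 without the first or the second sham array. The part of these cells in the immune results below was not tested.

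Of 24 complement genes 7 were higher and 0 lower (median 0.30). C4b measured 11.57, 11.96 and 11.50 at 24 h and 9.24, 9.51 and 9.44 in sham (change 2.28 ± 0.36, adjusted p = 0.000158). Cfi, which inactivates C3b and C4b, and C2, a protease of the classical pathway, rose by 2.27 ± 0.35 and 1.94 ± 0.38. C1qa, which macrophages make, rose by 1.56 ± 0.35. Ccl20, which attracts cells bearing Ccr6, measured 9.76, 9.11 and 9.12 at 24 h and 5.18, 5.36 and 6.57 in sham (change 3.63 ± 0.72, adjusted p = 0.00116). Over 37 chemokines and receptors 5 were higher (13.5%, near the 14.0% of all genes) and 1 lower (2.70%). The called members became 3 without the first or the third 24 h array and 2 without the first sham array. Cxcl11, an interferon-induced chemokine, rose by 1.99 ± 0.39. Icam1, the adhesion molecule that holds leukocytes, rose by 1.33 ± 0.34.

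Interferon-induced genes were higher in 13 of 41 and lower in 2 (median 0.50). They share Psmb8, Psmb9 and Psmb10 with the proteasome list. Irf1, a transcription factor of the interferon response, rose by 1.33 ± 0.32. Eif2ak2, the kinase that senses double-stranded RNA, and Igtp, an interferon-induced GTPase, fell by 1.56 ± 0.30 and 1.82 ± 0.39. MHC class II gave 1 lower and 0 higher of 9. Among death genes 10 of 36 were higher and 0 lower, at modest size (median 0.25), with Ripk3, a kinase of necroptosis, at 1.76 ± 0.41 and Birc3, an inhibitor of apoptosis, at 1.76 ± 0.26.

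Matrix genes were higher in part. Of 19 collagens 6 were higher and 1 lower (median 0.41), or 3 in all without the third 24 h array, and of 31 other matrix proteins and proteases 9 were higher and 2 lower (median 0.46). Fbln1, fibulin 1, rose by 2.48 ± 0.45, Fn1, fibronectin, by 1.70 ± 0.44, Col1a2, a fibrillar collagen chain, by 1.26 ± 0.33, and Loxl2, a crosslinking enzyme, by 1.76 ± 0.36. Adamts1, a secreted protease, rose by 2.18 ± 0.48. Timp3 measured 7.28, 6.75 and 7.76 at 24 h and 10.29, 9.75 and 10.28 in sham (change -2.84 ± 0.41, adjusted p = 6.91e-05), opposite to Timp1 of the same family of protease inhibitors. Markers of fibroblasts, pericytes and smooth muscle, 4 of 14 higher and 0 lower (2 without the third 24 h array), had a summed level of 7249 to 10845 at 24 h and 6750 to 8430 in sham, which overlap. This list holds Col1a1 and Col1a2, which rose and are also among the collagens, so its count partly repeats theirs. The part of these cells was not tested. Tgfb1 overlapped between the groups (adjusted p = 0.652). Lipid mediator and nucleotide genes were higher in 12 of 27 and lower in 1 (median 0.50), or 8 in all when any single 24 h array was left out and 6 without the first sham array, with the synthases Ptgis of prostacyclin at 1.31 ± 0.35 and Tbxas1 of thromboxane at 1.28 ± 0.25.

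Few markers of other cell types passed, while some of their summed levels separated the groups. Markers of the inner medulla and urothelium passed in 0 of 8, with a summed level of 1535 to 2435 at 24 h and 1152 to 1464 in sham, without overlap. Of 10 glomerular markers Wt1, a podocyte factor, was lower (change -1.58 ± 0.42) and 0 were higher, and 2 passed without the first 24 h array. Of 7 adrenal markers Hsd3b1 and Scarb1 were higher, and the summed level of the 7 was 322, 440 and 433 at 24 h and 246, 235 and 255 in sham, without overlap. Of these 7, 3 were detected on all 3 arrays at 24 h and 2 on all 3 in sham, so the sums rest in part on background signal. Star, which feeds cholesterol into steroid synthesis, measured 5.60, 5.86 and 5.75 at 24 h and 5.74, 5.73 and 5.87 in sham. The part of these cells in the results was not tested.

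Some of the genes named above were near background in 1 group, where a fitted change rests on weak signal. In sham cortex Kif20a, Knstrn, Cdkn3, Slc7a5 and Hsd3b1 were above background on 1 of 3 arrays, and Cdk1, Aurkb, Gins1, Hk3, Pmvk, Cyp3a9 and Loxl2 on 2. At 24 h Aldh6a1, Slc7a8, Slc22a23, Btc, Adam10 and Wt1 were above background on 2 of 3 arrays.

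Set against cortex at 6 h, cell division again led the 24 h cortex. Of 14390 probes 216 passed (1.50%), 188 higher (1.31%) and 28 lower (0.195%), and by genes 151 of 9799 were higher (1.54%) and 24 lower (0.245%). Leaving out the first 24 h array gave 145 probes, the lowest count, and leaving out the first or the second 6 h array gave 179 or 238. Of the mitosis and spindle list 37 of 48 were higher and 0 lower, and of the DNA replication list 15 of 46 and 0. The limit of the filter given for these 2 lists applies here too. Cdk1 averaged 5.02 ± 0.15 in sham, 6.17 ± 0.73 at 6 h, 10.30 ± 0.26 at 24 h and 8.29 ± 0.44 at 120 h (SD, n = 3 each). It was 4.13 ± 0.37 higher at 24 h than at 6 h (adjusted p = 1.60e-06). Rrm2 averaged 5.65 in sham, 5.40 at 6 h, 8.91 at 24 h and 7.31 at 120 h, a difference of 3.51 ± 0.36 between 24 h and 6 h. Fgb was also higher at 24 h than at 6 h, by 3.20 ± 0.60 (adjusted p = 0.00510), and Hpx, not above background on any 6 h array, was at least 7.42-fold higher (adjusted p = 3.11e-07), while Lcn2 with means of 11.76 at 24 h and 10.27 at 6 h was not called (adjusted p = 0.244).

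A few genes had been higher at 6 h. Cldn22, a claudin, averaged 4.96 at 24 h and 6.80 at 6 h, with 4.79 in sham cortex, and was lower at 24 h than at 6 h (log2 difference -1.85 ± 0.18, adjusted p = 3.86e-06). Acp3, an acid phosphatase, differed by -1.78 ± 0.22, Zfand2a, a stress-induced zinc finger protein, by -1.78 ± 0.33, and Ambp, the precursor of alpha-1-microglobulin, by -1.43 ± 0.27. Maff, a small Maf factor, differed by -1.63 ± 0.41 (adjusted p = 0.0498), and this call was lost in 14 of 21 alternatives, among them 3 other normalizations, the authors' series values, array weights and leaving out any 1 of the 6 arrays.

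**Figure D5:**
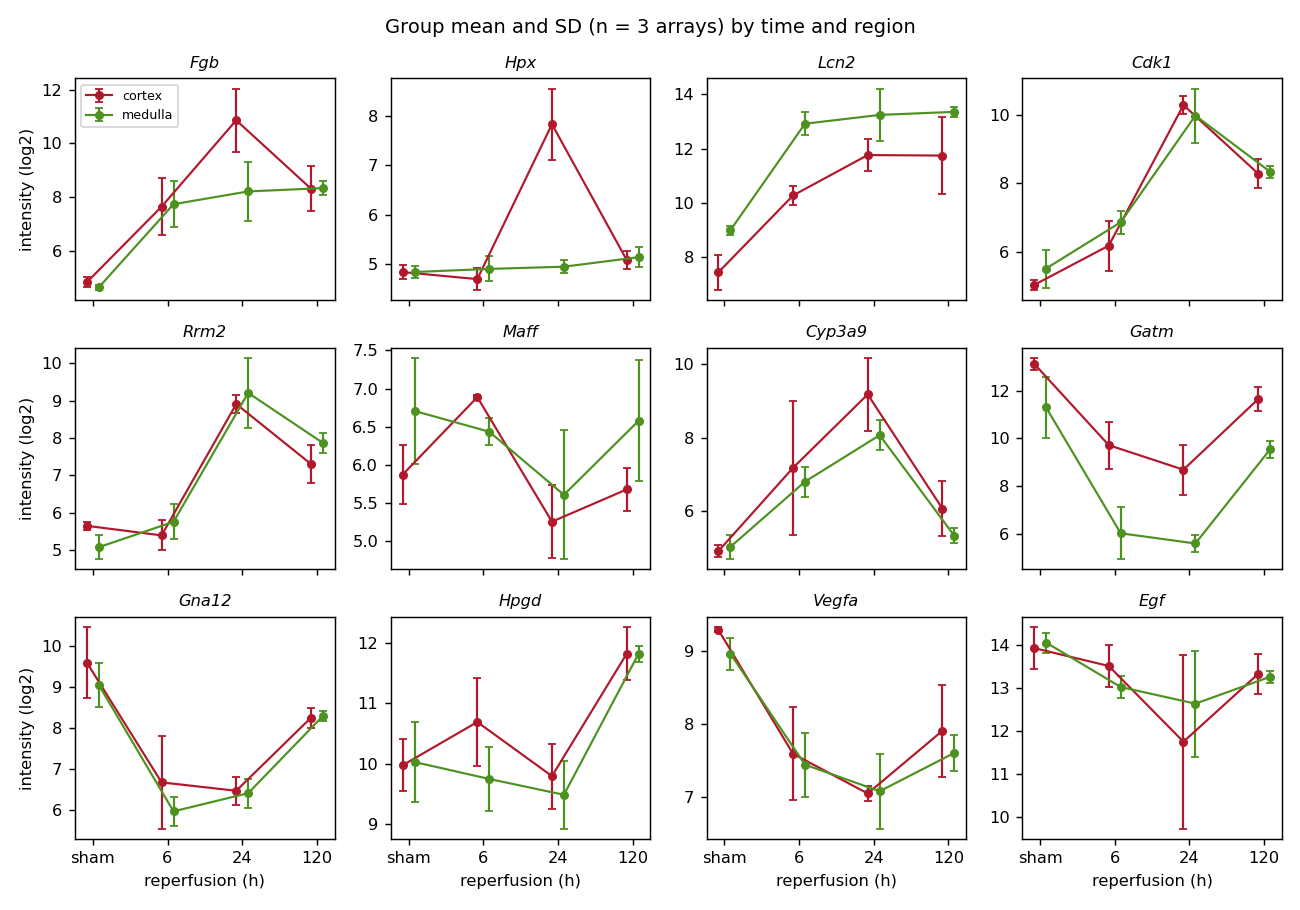
Normalized log2 intensity (y axis) of 12 genes in sham tissue and at 6 h, 24 h and 120 h of reperfusion (x axis) in cortex and medulla, as the mean of 3 arrays with bars for the SD. In cortex Cdk1 and Rrm2 are highest at 24 h, Maff at 6 h, and Gatm, Gna12 and Vegfa are lowest at 24 h with means of 8.69, 6.46 and 7.04.

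Set against cortex at 120 h, 337 probes passed (2.34%), 209 higher at 24 h (1.45%) and 128 lower (0.890%), and by genes 250 of 9799 passed (2.55%), 158 higher (1.61%) and 92 lower (0.939%). The count depended on single arrays, with 135 probes when the second 24 h array was left out, 209 without the first 24 h array, 143 without the first 120 h array and 145 without the third. Mitosis and spindle genes were higher in 33 of 48 and DNA replication genes in 19 of 46, with 0 lower in either and the same limit of the filter. Cyp3a9 averaged 9.18 at 24 h and 6.07 at 120 h, and Fgb 10.86 and 8.32, with differences of 3.11 ± 0.62 and 2.54 ± 0.60. The call of Fgb was lost without the second 24 h array (2.68) or the third (1.89), and without the first 120 h array (2.12) or the third (2.54). Fgg, with a difference of 2.59, lost its call without the same arrays (2.44, 2.10, 1.93 and 2.68), and both were also lost with no filter, with only the groups compared and with only the 12 cortex arrays. The call of Cyp3a9 was lost with only the 12 cortex arrays and without the third 24 h array or the first 120 h array. Fam25a averaged 9.07 at 24 h and 5.63 at 120 h, a difference of 3.44 ± 0.57, and Ube2t, a ubiquitin-conjugating enzyme of DNA repair, 8.18 and 5.67.

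On the lower side at 24 h against 120 h, Gatm averaged 8.69 at 24 h and 11.65 at 120 h (difference -2.96 ± 0.62, adjusted p = 0.0132), with 13.13 in sham cortex. Cbx6, a Polycomb protein, averaged 4.92 at 24 h and 6.90 at 120 h (difference -1.97 ± 0.24, adjusted p = 0.000263), with 7.70 in sham. Hpgd, which inactivates prostaglandins, averaged 9.80 at 24 h and 11.82 at 120 h. Of 9 MHC class II genes 3 were lower at 24 h than at 120 h and 0 higher. They were RT1-Db1 (difference -1.72 ± 0.36, adjusted p = 0.0122), Cd74, the invariant chain (-1.09), and RT1-Da (-0.84). The RT1-Db1 call was lost without the first 120 h array (-1.65), and those of Hpgd and Gatm without the third (-1.88 and -2.70), while that of Gatm was also lost without the second 24 h array (-2.38). The comparisons with sham, 6 h and 120 h share the 24 h arrays.

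A direct test of the cortex response against the medulla response at 24 h passed for few probes, and their number depended on the fit. The difference of the 2 responses, each against its own sham tissue, passed for 8 of 14390 probes (0.0556%), 5 of them higher in the cortex response (0.0347%) and 3 lower (0.0208%). Of the 8 probes 4 carry a gene name, all of them higher, which is 0.0408% of 9799 genes. With the time and number shared by the regions as a random block 38 probes passed, with array weights 820, and with only the groups compared 2. Hpx was the clearest. It averaged 7.84 ± 0.73 at 24 h and 4.83 ± 0.14 in sham in cortex, and 4.94 ± 0.14 at 24 h and 4.83 ± 0.12 in sham in medulla (SD, n = 3 each), a difference of responses of 2.91 ± 0.35 (adjusted p = 0.000667). Slc39a5, a zinc importer, averaged 9.18 at 24 h and 8.86 in sham in cortex and 5.99 and 7.85 in medulla, and Igsf11, an adhesion protein, 10.87 and 11.89 in cortex and 7.73 and 10.80 in medulla. Spp1 differed by 1.96 ± 0.31, but its 24 h means of 14.61 in cortex and 14.65 in medulla lie near the top of the scale. The calls of Slc39a5 and Igsf11 were each lost in 12 of 26 alternatives, among them the authors' series values, only the groups compared, and leaving out any of 7 single arrays for Slc39a5 and any of 8 for Igsf11. With only the groups compared Hpx and Spp1 did not pass either. The cell cycle genes named above did not pass, with adjusted p = 0.703 for Cdk1, 0.972 for Pbk and 0.984 for Ccnb2, which does not show that they responded alike. The first sham medulla array correlated best with sham cortex, and without it the count was 10 probes, whereas without the first 24 h medulla array it was 140.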

How the data were processed

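Total RNA was labelled as biotinylated cRNA and hybridised to 24 Illumina rat bead arrays, per the labels. The deposited table holds, per the file headers, intensities that the authors did not normalize. The detection values deposited with them are headed as p-values but rise with intensity, and were read as a fraction equal to 1 minus p. A second deposited table holds the authors' log2 values, and the labels and headers used here do not give their normalization. Groups were taken from the titles.

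Intensities were corrected and quantile-normalized with neqc of limma 3.58.1 in R 4.3.3 (offset 16), and 14390 of 22523 probes were tested, those detected (p under 0.05) on 3 or more arrays. All 24 arrays entered one fit of 8 group means with lmFit and eBayes (degrees of freedom 16 residual, 3.34 prior), which gives all groups one estimate of spread. Benjamini-Hochberg adjustment ran over the 14390 probes of each comparison, at 0.05. The number of arrays limits the precision. Summed levels of a marker list add the normalized intensities of its members off the log scale.

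Probes were named from the platform annotation. Of 22523 probes 13793 have 1 gene symbol and 8730 none, and of 13337 symbols none changed on updating. Gene lists use 1 probe per gene, the one with the highest mean, and cover 9799 genes. The text names the 15 highest and 15 lowest called genes whose arrays do not overlap against sham cortex, 6 on each side in the other comparisons, some genes set for each list whatever their values, and up to 5 called members per list and direction. A few further genes (Cpt1a, G6pc1, Star, RT1-Da, and Cyp4a1 and Klhl25 on a second probe) were chosen after their values were seen. The members and the lists were chosen with earlier results of these data known. Promoters were searched in the RefSeq table of GRCr8 with Python 3.11.15.

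Data for the comparison of 24 h with sham cortex over 14390 probes were simulated with 200 of them changed, 100 at each size. There the fit recovered 69% of 2-fold and 93% of 4-fold changes with 14 false calls. In the measured data far more probes passed, 3766, so these rates do not carry over to that count. Alternatives covered background correction, normalization, the authors' values, filters, the probe rule, the arrays in the fit, array weights, moderation, thresholds, replicate blocks and leaving out each array.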

Additional observations from a re-analysis of the deposited data

Results flagged for a closer look

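The genes below differ between times or between regions by the test of the difference itself (limma, Benjamini-Hochberg adjusted p under 0.05), and are the highest and lowest named genes of each comparison. Values are log2 differences.

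Between 24 h and 6 h cortex, cell cycle genes were the most different on the higher side: Cdk1 by 4.13, Pbk by 3.77, Ccna2 by 3.69, Rrm2 by 3.51, Aurkb by 3.46 and Ccnb2 by 3.41. Pbk and Ccna2 were each above background on 1 of 3 arrays at 6 h. On the lower side at 24 h stood Cldn22 at -1.85, Zfand2a at -1.78, Acp3 at -1.78, Maff at -1.63 (adjusted p = 0.0498), Gng7, a G protein gamma subunit, at -1.59 (adjusted p = 0.0398), and Ambp at -1.43. The Maff call was lost in 14 and the Gng7 call in 11 of 21 alternatives.

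Between 24 h and 120 h cortex, the higher side held Fam25a at 3.44, Cyp3a9 at 3.11, Hpx at 2.76, Fgg at 2.59, Fgb at 2.54 and Ube2t at 2.51. The calls of Fgg and Fgb were each lost in 8 of 21 alternatives. The lower side held Gatm at -2.96, Hpgd at -2.02, Cbx6 at -1.97, Gna12 at -1.79, Apmap, a membrane protein of adipocytes, at -1.74 and RT1-Db1 at -1.72. The calls of Gna12 and Apmap were lost in 13 and 10 of 21 alternatives.

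Between the responses of cortex and medulla at 24 h, each against its own sham tissue, Hpx differed by 2.91 (adjusted p = 0.000667), Slc39a5 by 2.18 (adjusted p = 0.0236), Igsf11 by 2.04 (adjusted p = 0.0246) and Spp1 by 1.96 (adjusted p = 0.0108). The 24 h values of Spp1 lie near the top of the scale in both regions. The calls of Slc39a5 and Igsf11 were each lost in 12 of 26 alternatives.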

How the results depend on the processing

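For 24 h against sham cortex the 3766 probes became 2172 at an adjusted p under 0.01, 1909 with a change of at least 2-fold and 2545 to 3336 when single arrays were left out, and other settings kept the count within 1.5 times. For 24 h against 6 h cortex the 216 probes became 107 with only the groups compared, 124 at an adjusted p under 0.01 and 145 to 274 without single arrays. For 24 h against 120 h cortex the 337 probes became 206 with only the 12 cortex arrays, 1997 with array weights, 119 at an adjusted p under 0.01, 220 with at least 2-fold and 135 to 232 without single arrays. For the difference between the cortex and medulla responses the 8 probes became 5 in the authors' series values, 13 with median scaling, 37 with the strict filter, 33 with 1 probe per gene, 2 with only the groups compared, 820 with array weights, 40 with trend and robust moderation, 4 at an adjusted p under 0.01, 38 with the replicate block, 38 with time and number shared by the regions as a random block, and 5 to 140 without single arrays. Stricter thresholds lower a count by construction. Without single arrays the counts against 6 h cortex and between the regions both rose and fell. The cause of the changes other than those from thresholds was not tested.

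Same-numbered arrays of 24 h and sham cortex had correlations of their deviations of 0.0226, 0.0795 and 0.107, so the numbers were not taken as pairs. With the replicate block 3815 probes passed against sham, 222 against 6 h and 371 against 120 h cortex. Between 24 h cortex and 24 h medulla each array correlated best with its own number (0.398, 0.262 and 0.356), but in sham tissue same numbers gave -0.174, -0.0170 and -0.117.

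The call of Gna12 against 120 h cortex was lost in 13 of 21 alternatives, among them leaving out any 1 array, and that of Apmap in 10. Against 6 h cortex the call of Gng7 was lost in 11, that of Ambp in 3 and that of Ccnb2 in 1. That of Zfand2a was lost in part of the alternatives. With only the groups compared, none of Hpx, Spp1, Slc39a5 and Igsf11 passed in the difference between the regions. Over 500 results for named genes, 9410 alternative values kept the outcome, called or not called, so they include genes that never passed. A call was lost in 1007 values and gained in 56, and 31 values changed sign.

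All 31 belong to genes that did not pass against sham cortex. Median scaling gave Itgb6 0.22 and Ccnd1 0.12, and array weights gave Itgb6 0.0685, Cdh16 0.0480 and Ccnd1 0.0521. Without single arrays the log2 change ran between -0.0742 and 0.0663 for Itgb6, -0.21 and 0.14 for Ccnd1, -0.38 and 0.0685 for Cdh16, -0.0684 and 0.33 for Ppara, -0.0467 and 0.33 for Qprt, -0.19 and 0.85 for Nfkbia, -0.15 and 0.52 for Gsta3, -0.0157 and 0.00513 for Fth1, -0.62 and 0.11 for Haao, -0.0352 and 0.57 for Osmr, -0.0104 and 0.47 for Tgfb1, -0.855 and 0.0467 for Agt, -1.60 and 0.0900 for Umod, -9.94e-05 and 0.39 for Cox4i1, -0.29 and 0.0960 for Srsf3, -0.0150 and 0.60 for Cd74, -0.0125 and 0.76 for Fos, -0.17 and 0.0107 for Pkm, and -0.24 and 0.0929 for Upk3a.

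Intensities near the top of the scale compress differences, and probes near background give bounds only.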

Other observations

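Lists of RNA handling and protein folding held called genes in both directions, and in the folding lists the share called was below the 27.3% of all genes. Of 36 splicing and RNA export genes tested 9 were higher and 4 lower than in sham cortex (median 0.08), and the 13 called became 8 without the third 24 h array. Snrpa, a protein of the U1 particle, rose by 1.86 ± 0.38 and Hnrnpa1, which binds pre-mRNA, by 1.58 ± 0.26, whereas Hnrnpab and the splicing factor Srsf2 fell by 1.09 ± 0.24 and 0.90 ± 0.20. Of 33 endoplasmic reticulum stress genes 5 were higher and 2 lower. Sdf2l1, a chaperone partner of the reticulum, measured 7.15, 7.48 and 8.03 at 24 h and 5.30, 5.94 and 6.17 in sham (change 1.75 ± 0.28), and Asns, asparagine synthetase, rose by 1.53 ± 0.34 (above background on 2 of 3 sham arrays). Canx, the lectin chaperone calnexin, fell by 1.42 ± 0.31. Of 31 heat shock genes 5 were higher and 2 lower, and the 7 called became 4 without the second or the third 24 h array or the first sham array. H2ax, the histone marked at broken DNA, rose by 1.64 ± 0.23, 1 of 2 higher among 9 histone genes, a count that became 1 without any single 24 h array or the first sham array.

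Signalling lists held calls in both directions. Of 27 NF-kB, TNF and interleukin 1 genes 5 were higher (18.5%) and 4 lower (14.8%), against 14.0% and 13.3% of all genes. Tlr2, a receptor for bacterial lipoproteins, rose by 1.41 ± 0.29 and Nfkb2 by 0.88 ± 0.19, while Irak2, a kinase of the same receptors, fell by 1.21 ± 0.31. Of 32 TGF beta, BMP and activin genes 2 were higher and 2 lower (6.25% each, below the shares of all genes). They included Fstl3, which binds activin, at 1.44 ± 0.38 and the receptors Tgfbr3 and Acvr1 at -1.42 ± 0.31 and -1.54 ± 0.39. Tgfbr3 was above background on 1 of 3 arrays at 24 h. Pdgfc, a platelet-derived growth factor, measured 5.55, 5.58 and 6.46 at 24 h and 8.46, 7.54 and 7.31 in sham (change -1.90 ± 0.36). Kit, a receptor kinase, fell by 1.50 ± 0.26, and Fgf1, a fibroblast growth factor, rose by 1.26 ± 0.30. Among 33 glucuronosyl, glutathione and sulfo transferases 3 were higher and 3 lower (9.09% each, also below the shares of all genes). Gstp1, a glutathione transferase, measured 11.92, 12.38 and 13.35 at 24 h and 10.81, 11.08 and 9.95 in sham (change 1.94 ± 0.44), while Gstm2, of another class, fell by 1.47 ± 0.36.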
